A study of Mus musculus with 11 samples.

Results

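The genes described are 10 imprinted genes that lie outside the Dlk1-Dio3 cluster, namely Nnat, Cdkn1c, Peg3, Mest, Plagl1, Peg10, Sgce, Igf2r, H19 and Igf2. They were chosen by name, with earlier results of these data known, and all 10 are among the 55291 rows of the count table. RNA was sequenced from E14 mouse embryonic stem cells, kept without feeders in medium holding serum, LIF, a GSK3 inhibitor and a MEK inhibitor. The tagged lines carry V5 and an auxin-inducible degron (AID) at the C-terminus of SPT16, a subunit of the histone chaperone FACT, and auxin (IAA) applied to the cells can direct the protein to degradation. The groups are 3 libraries of tagged cells given 500 nM IAA for 24 hours, 4 libraries of tagged cells given the same volume of ethanol (EtOH) for 24 hours, and 3 libraries of untagged cells given IAA. The tagged cells are 2 independently targeted clonal lines, called 11D and 10E in the table. Line 11D has 2 libraries with each treatment, and line 10E has 1 with IAA and 2 with EtOH, so a test of line 10E assumes that its lone IAA library varied like the other groups. Whether replicates were separate cultures is not stated, and the p-values therefore reflect the spread among these libraries, which may be technical.

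An imprinted gene is transcribed mainly from the allele inherited from 1 parent, because DNA methylation placed in the egg or the sperm marks a control region near it. After fertilisation the mark is kept by factors such as ZFP57, which binds the methylated hexamer TGCCGC, with TRIM28, DNMT1 and UHRF1. Cultured embryonic stem cells can lose or gain such marks, and clones of a line can differ in them. The counts here do not separate the alleles, so all values are sums over both. The words paternally and maternally expressed name a gene's known pattern, and whether it held in these cells was not tested.

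Promoter sequences of 3 genes are shown first, those of Plagl1, which differed most between the tagged lines, Nnat, which changed most with IAA, and Mest. The IAA response of Mest differed between the lines at an unadjusted p under 0.05 only, and not after adjustment over all genes. The sequences are the 250 bases before a RefSeq transcription start (GRCm38.p6), with TGCCGC on either strand in capitals. The Plagl1 window (chr10:13090582-13090831, plus strand), a window of Mest (chr6:30737800-30738049, plus strand) and that of Nnat (chr2:157559828-157560077, plus strand) read:
Plagl1: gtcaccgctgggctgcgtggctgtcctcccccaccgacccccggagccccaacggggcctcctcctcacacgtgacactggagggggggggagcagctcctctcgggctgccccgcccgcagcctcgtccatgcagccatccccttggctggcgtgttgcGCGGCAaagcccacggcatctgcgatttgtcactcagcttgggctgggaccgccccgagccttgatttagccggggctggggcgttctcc
Mest: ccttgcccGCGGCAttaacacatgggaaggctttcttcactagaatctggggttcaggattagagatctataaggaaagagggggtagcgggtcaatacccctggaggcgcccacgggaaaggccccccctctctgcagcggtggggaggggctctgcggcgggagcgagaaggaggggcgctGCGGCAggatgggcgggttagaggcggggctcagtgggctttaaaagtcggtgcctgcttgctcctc
Nnat: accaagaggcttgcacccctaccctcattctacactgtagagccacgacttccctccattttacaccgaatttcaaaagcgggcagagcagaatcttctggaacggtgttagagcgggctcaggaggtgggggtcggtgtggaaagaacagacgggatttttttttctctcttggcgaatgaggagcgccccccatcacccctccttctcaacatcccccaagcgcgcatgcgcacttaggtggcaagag
The hexamer occurs 2 times in the Mest window shown and 1 time in that of Plagl1, and these letters are not in the Nnat window. Of all 32841 windows of this length in the table, 8.68% hold it. CpG dinucleotides number 19 in the Plagl1 window, 14 in the Mest window shown and 12 in that of Nnat, and 80.3%, 70.6% and 66.5% of all windows hold fewer. Mest has further RefSeq starts, and the window of its upstream start (chr6:30733256-30733505, plus strand) holds 7 CpG and not the hexamer. Of the 10 genes, 6 had an entry, and the windows of Peg3, Igf2r and Igf2 do not hold the hexamer. The counts do not tell apart transcripts from different starts of a gene.

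Library totals ran from 3100127 to 13510163 counts, with the 10E IAA library at 3820333. A gene counted as changed when edgeR's quasi-likelihood test gave a false discovery rate (FDR, Benjamini-Hochberg over all genes tested) under 0.05. Levels are CPM, counts per 1000000 counts of the library scaled by TMM factors, and fold changes are log2 with an approximate standard error (SE). This SE, also drawn as bars in the figures, was not fitted but worked back from each fold change and its F statistic. For genes with few counts it need not match the p-value, and calls rest on the test alone. The tag acts on the protein, so no transcript count checks the labels. The defining stem cell markers, among them Nanog and Esrrb, were present in every group, with 8 markers summing to 2850 to 3170 CPM in tagged IAA cells, 7160 to 8850 CPM in tagged EtOH cells and 7570 to 8170 CPM in untagged cells. In tagged IAA cells, 10 fibroblast markers summed to 306 to 367 CPM, 10 primitive endoderm markers to 168 to 224 CPM and 10 trophectoderm markers to 101 to 129 CPM. The same sums were 317 to 406, 382 to 524 and 152 to 168 CPM in tagged EtOH cells, and 204 to 290, 464 to 511 and 118 to 142 CPM in untagged cells. Vim made up most of the fibroblast sum (means of 311, 314 and 219 CPM in tagged IAA, tagged EtOH and untagged cells). Lama1 made up most of the primitive endoderm sum (164, 444 and 475 CPM). With IAA, 8 of 8 stem cell markers tested fell, with a median log2 fold change of -1.51. Of 6 primitive endoderm markers tested 2 rose (Dab2 and Pdgfra) and 1 fell (Lama1). Of 6 fibroblast markers 0 rose and 1 fell, and of 8 trophectoderm markers 2 rose and 3 fell. Of all genes tested, 29.3% rose and 28.1% fell. In the tagged IAA libraries only Postn of the fibroblast list and Elf5 of the trophectoderm list had 0 counts throughout. Fewer cells of a type and less RNA per cell cannot be told apart in such bulk samples, and the part of the lower stem cell marker levels in the results was not tested. Mitochondrial genes took 2.45 to 3.16% of the counts in tagged IAA cells, 1.67 to 2.26% in tagged EtOH cells and 2.28 to 2.73% in untagged cells, and the part of this difference was not tested either.

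Per kilobase of exon, the 10 genes spanned a wide range of levels. In tagged IAA cells Peg10 averaged 23.2 CPM per kilobase, Plagl1 22.4, Mest 18.9, Igf2r 18.8, Nnat 18.3, Peg3 15.2 and Cdkn1c 7.06 CPM per kilobase, with Sgce at 0.735 and H19 at 0.224 and no Igf2 read. In tagged EtOH cells Plagl1 averaged 30.2 CPM per kilobase, Peg10 25.9, Igf2r 20.1, Mest 9.46 and Peg3 6.54 CPM per kilobase. Cdkn1c at 0.79, Sgce at 0.726, Nnat at 0.458, H19 at 0.243 and Igf2 at 0.0416 CPM per kilobase were low there. Nnat and Cdkn1c thus stood among the expressed genes in tagged IAA cells and among the low ones in tagged EtOH cells. Neighbours in this order were not tested against each other, and the averages over both lines hide the line differences given further on.

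**Figure D1:**
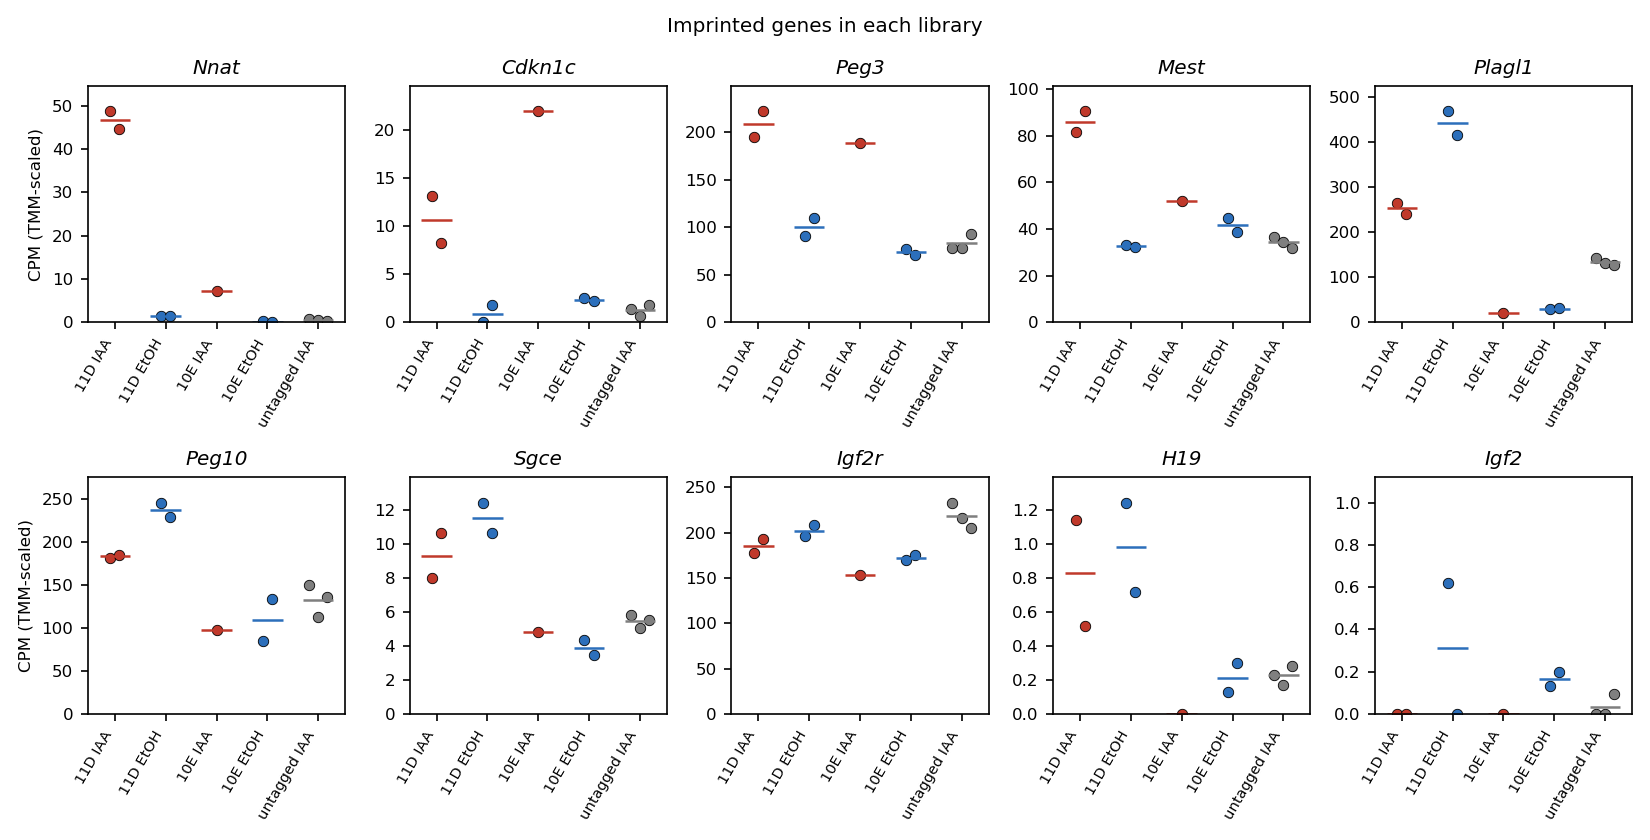
Level of each of the 10 genes in CPM (vertical axes, linear and from 0) in every library (points), with group means as lines, for IAA (red) and EtOH (blue) in lines 11D and 10E and for untagged cells given IAA (grey). Nnat and Cdkn1c are high only in the tagged IAA libraries among those shown, and Plagl1 separates the lines, at 415 and 468 CPM in 11D EtOH against 28.7 and 31.7 CPM in 10E EtOH.

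The first comparison asks what 24 hours of IAA did in the tagged lines. Nnat, Cdkn1c, Peg3 and Mest rose and Plagl1 fell, while Igf2r, Peg10, Sgce and H19 did not pass the test. Of the 10 genes 9 passed the filter on low counts, so 4 of 9 rose, where 29.3% of all 17904 genes tested did, and 1 of 9 fell, where 28.1% of all did. IAA moved much of the transcriptome, so these counts alone set nothing apart about the 10 genes, and the median log2 fold change was -0.08 over the 9 genes and 0.03 over all genes tested. Over all genes 5247 rose and 5034 fell with TMM factors, and 7713 rose and 2851 fell when libraries were scaled by their totals. Igf2 did not pass the filter and was not tested.

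Nnat encodes neuronatin, a small membrane protein of the endoplasmic reticulum that is paternally expressed and best known from brain and endocrine cells. It lies at chr2:157560078-157562522 (plus strand, GRCm38) inside an intron of Blcap. It had 171 and 690 counts (48.7 and 44.6 CPM) in 11D IAA libraries and 33 counts (7.24 CPM) in the 10E IAA library. In EtOH it had 5 and 16 counts (1.56 and 1.43 CPM) in line 11D and 2 and 1 counts (0.262 and 0.0988 CPM) in line 10E, and untagged cells had 3 counts in each library (0.694, 0.506 and 0.279 CPM). Every tagged IAA library was above every other library, though the IAA level of line 10E stayed well under that of 11D. The fitted log2 fold change was 5.02 ± 0.24 (SE, edgeR FDR 5.04e-10), the largest among the 9 genes. With so few counts in EtOH, ratios of pooled counts were also taken, scaled by library totals and not by TMM factors. They were 38 in line 11D (95% counting interval 24.7 to 61.7) and 55.4 in line 10E (17.4 to 282), intervals that cover counting error only. The fitted folds with TMM factors were 31.3 in line 11D and 38.9 in line 10E. Blcap, the host gene, read from the other strand, rose by less, with a log2 fold change of 0.47 ± 0.12 (edgeR FDR 0.00272).

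Cdkn1c, maternally expressed at chr7:143458339-143461050 (minus strand), encodes the cyclin-dependent kinase inhibitor p57. Its level was 13.1 and 8.21 CPM in 11D IAA libraries and 21.9 CPM in the 10E IAA library. It was 0 and 1.79 CPM in 11D EtOH, 2.49 and 2.17 CPM in 10E EtOH, and 1.39, 0.674 and 1.77 CPM in untagged cells. The tagged IAA libraries did not overlap the rest, and here line 10E was the higher. The log2 fold change was 3.08 ± 0.33 (SE, edgeR FDR 1.02e-06), from 273 pooled counts in IAA and 61 in EtOH. Phlda2, which shares the imprinted domain of Cdkn1c and restrains placental growth, had a log2 fold change of 0.15 ± 0.28 (edgeR FDR 0.673).

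Peg3, a paternally expressed zinc finger gene at chr7:6703892-6730431 (minus strand), had 195 and 222 CPM in 11D IAA libraries and 189 CPM in the 10E IAA library. It had 90.6 and 110 CPM in 11D EtOH, 77 and 71.1 CPM in 10E EtOH, and 78, 78.2 and 93.1 CPM in untagged cells. The IAA levels of the lines were close together and above all other libraries. The log2 fold change was 1.16 ± 0.10 (SE, edgeR FDR 1.51e-07). Beside Peg3, the maternally expressed zinc finger gene Zim1 rose by a log2 fold change of 2.52 ± 0.43 (edgeR FDR 0.000122). It had 91 pooled counts in tagged IAA cells and 21 in tagged EtOH cells. Usp29, which is paternally expressed from the same region, had -0.11 ± 0.38 (edgeR FDR 0.814).

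Mest, paternally expressed at chr6:30723547-30748465 (plus strand), encodes a membrane protein with a hydrolase fold. Levels were 81.5 and 90.5 CPM in 11D IAA libraries and 52 CPM in the 10E IAA library, against 33.3 and 32.4 CPM in 11D EtOH and 44.9 and 38.6 CPM in 10E EtOH. Untagged cells had 36.6, 34.4 and 32 CPM. The groups did not overlap, but the 10E IAA library stood only a little above its EtOH libraries. Over both lines the log2 fold change was 0.97 ± 0.17 (SE, edgeR FDR 0.000192). Exons of Mest and of Copg2 on the opposite strand overlap, and without a known strand setting their reads cannot be told apart there. Copg2, a coatomer subunit gene, fell by 0.84 on the log2 scale (SE 0.11, edgeR FDR 8.79e-06).

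Plagl1, a paternally expressed zinc finger transcription factor also called Zac1, lies at chr10:13060504-13131694 (plus strand). It had 265 and 241 CPM in 11D IAA against 468 and 415 CPM in 11D EtOH, and 19.7 CPM in 10E IAA against 28.7 and 31.7 CPM in 10E EtOH. Within each line IAA was below EtOH, although the groups overlapped when the lines were pooled, because line 10E was the lower under both treatments. The log2 fold change with line in the model was -0.75 ± 0.10 (SE, edgeR FDR 7.75e-06), and without a term for line the same test gave -0.41 (edgeR FDR 0.723). Its neighbours Phactr2, a phosphatase and actin regulator, and Ltv1, a ribosome assembly factor, had log2 fold changes of -0.96 ± 0.16 (edgeR FDR 0.00012) and -0.27 ± 0.11 (edgeR FDR 0.0478). The Ltv1 value turned to 0.07 when libraries were scaled by their totals, and its call was also lost with DESeq2, with RLE size factors, without the filter, with a replicate block (edgeR FDR 0.0677), without a line term, and in 5 of the 7 fits that left out 1 library, all but those without the first 10E EtOH or the first 11D EtOH library.

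Igf2r, maternally expressed in mouse, encodes the receptor that takes up IGF2 for degradation. It had 178 and 193 CPM in 11D IAA, 153 CPM in 10E IAA, 196 and 208 CPM in 11D EtOH, 170 and 175 CPM in 10E EtOH, and 233, 216 and 205 CPM in untagged cells. Within each line the IAA libraries were below the EtOH libraries, while the treatments overlapped when the lines were pooled, with a log2 fold change of -0.15 ± 0.09 (SE, edgeR FDR 0.139). Peg10, a paternally expressed gene derived from a retrotransposon and needed in the placenta, had 181 and 185 CPM in 11D IAA, 97.6 CPM in 10E IAA, 245 and 228 CPM in 11D EtOH, and 84.7 and 133 CPM in 10E EtOH. Its log2 fold change was -0.29 ± 0.12 (edgeR FDR 0.051), a near miss that became a call without the first 10E EtOH library (-0.42, edgeR FDR 0.00139), which gave 2 genes lower in place of 1. Sgce, paternally expressed and encoding epsilon-sarcoglycan, had 7.98 and 10.6 CPM in 11D IAA, 4.83 CPM in 10E IAA, 12.4 and 10.6 CPM in 11D EtOH, and 4.32 and 3.46 CPM in 10E EtOH. The value of -0.08 ± 0.22 (edgeR FDR 0.78) was far inside the spread. Igf2r, Peg10 and Sgce had values of 0.18, 0.04 and 0.25 when libraries were scaled by their totals, without passing the test.

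Igf2, the paternally expressed fetal growth factor, and H19, the maternally expressed long noncoding RNA 72.6 kb away, were close to silent. H19 had 4 and 8 counts in 11D IAA, 0 in 10E IAA, 4 and 8 in 11D EtOH, 1 and 3 in 10E EtOH, and 1, 1 and 3 in untagged cells. The 0 counts allow up to 0.658 CPM in the 10E IAA library, taking 3 counts as the limit. Its log2 fold change of -0.56 ± 0.72 (SE, edgeR FDR 0.518) was not distinguishable from no change at this depth. Igf2 had 0 counts in all 3 tagged IAA libraries, where 3 counts would be 0.855 and 0.194 CPM in line 11D and 0.658 CPM in line 10E. It had 2 and 0 counts in 11D EtOH, 1 and 2 in 10E EtOH, and 0, 0 and 1 in untagged cells, so no difference could be seen at this depth. The authors' deposited table lists log2 fold changes of 5.06 for Nnat, 3.18 for Cdkn1c, 1.22 for Peg3, 1.03 for Mest and -0.72 for Plagl1.

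The IAA effect was then set side by side in the lines. In line 11D, 4 of 9 genes rose (Nnat, Cdkn1c, Peg3 and Mest) and Plagl1 fell, where 46.2% of all genes passed the test in either direction. In line 10E, 3 of 9 rose (Nnat, Cdkn1c and Peg3) and Plagl1 fell, where 35.4% of all genes passed. Nnat had log2 fold changes of 4.97 ± 0.27 in line 11D and 5.28 ± 0.49 in line 10E, Cdkn1c 2.92 ± 0.49 and 3.22 ± 0.47, Peg3 1.04 ± 0.13 and 1.33 ± 0.15, and Plagl1 -0.81 ± 0.11 and -0.63 ± 0.18 (SE, lines in the same order). The differences between the effects, 11D minus 10E, were -0.31 ± 0.55 for Nnat, -0.30 ± 0.74 for Cdkn1c, -0.29 ± 0.20 for Peg3 and -0.18 ± 0.21 for Plagl1, none of which passed the test. Without the second 11D EtOH library, which leaves only the 11D EtOH library with 0 Cdkn1c counts, the fitted Cdkn1c value in line 11D became 9.22 and the difference 5.98, values that depend on the prior count, while without the first 11D EtOH library they were 2.46 and -0.75. In line 10E the Plagl1 call was lost without the second 10E EtOH library (-0.53, edgeR FDR 0.0549) and under scaling by library totals (-0.25, edgeR FDR 0.276).

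Of the 9 genes, Mest had the smallest unadjusted p for a difference between lines in its response, though it did not pass the test. Its log2 fold change was 1.39 ± 0.14 in line 11D (SE, edgeR FDR 6.34e-06). In line 10E, with 1 IAA library, it was 0.30 ± 0.17 (edgeR FDR 0.188). With libraries scaled by their totals Mest passed in line 10E too, at 0.67 (edgeR FDR 0.0117). The difference between the effects, 11D minus 10E, was 1.09 ± 0.23, with an unadjusted p of 0.000296 and an edgeR FDR of 0.764 over all genes. No gene of the 10 passed the test of this difference, and the share of all genes that did was 0%. At an unadjusted p under 0.05, 1 of the 9 genes (Mest) and 872 of all 17904 genes tested were found. The latter is close to the share that such a threshold lets through by chance. DESeq2 called 0 of the 9 and 1 of all.

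**Figure D2:**
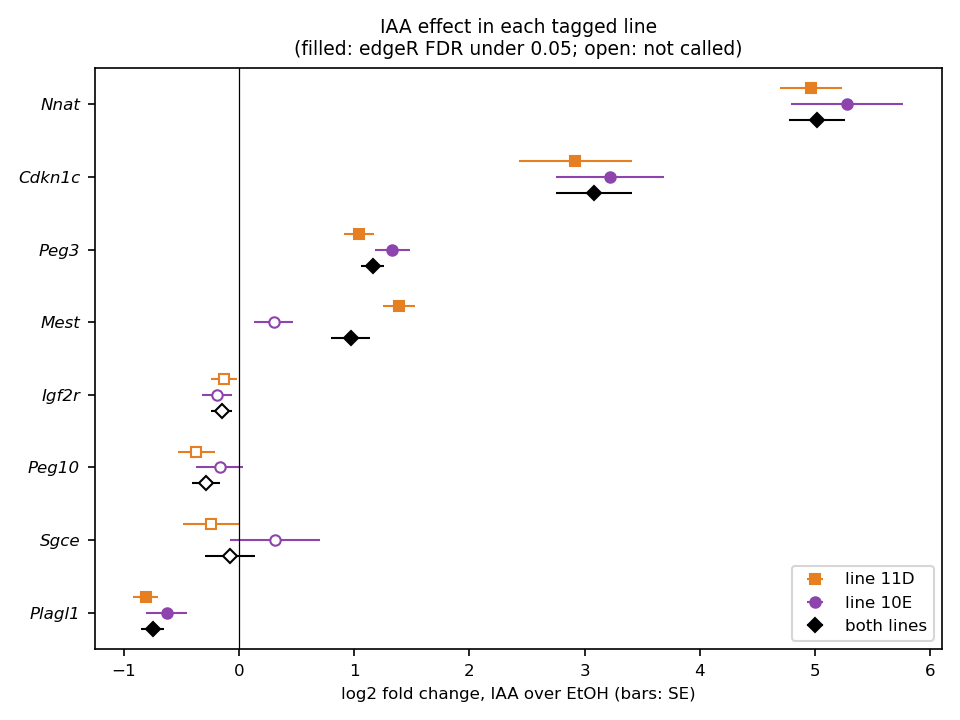
Log2 fold change of IAA over EtOH (horizontal axis) with its SE (bars) for 8 genes in line 11D (squares), line 10E (circles) and both lines (diamonds), filled where the edgeR FDR was under 0.05. Nnat, Cdkn1c and Peg3 lie right of 0 in both lines, Plagl1 lies left of 0 in both, and Mest reads 1.39 in line 11D and 0.30 in line 10E. H19 is left out because the 10E IAA library had 0 counts.

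The second comparison is between the tagged lines without IAA. Nnat, Plagl1, Peg10 and Sgce were higher in line 11D than in line 10E. These are 4 of 9 genes tested, whereas 1.95% of all genes were higher and 1.28% lower in 11D. All 4 are paternally expressed, as are most of the 9. Peg3 and Mest, paternally expressed too, did not pass, with log2 differences of 0.44 ± 0.13 and -0.36 ± 0.14 (SE). The median log2 difference was 1.11 over the 9 genes and 0.00 over all genes tested.

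Plagl1 differed most, with 468 and 415 CPM in 11D EtOH and 28.7 and 31.7 CPM in 10E EtOH. The log2 difference was 3.86 ± 0.13 (SE, edgeR FDR 4.68e-10), a 14.5-fold higher level in 11D. Peg10 and Sgce, which start 98 bases apart in opposite directions on chromosome 6, were both higher in line 11D. Peg10 had 245 and 228 CPM in 11D EtOH against 84.7 and 133 CPM in 10E EtOH, a log2 difference of 1.11 ± 0.16 (edgeR FDR 0.00313). For Sgce, at 12.4 and 10.6 CPM in 11D EtOH against 4.32 and 3.46 CPM in 10E EtOH, the difference was 1.54 ± 0.27 (edgeR FDR 0.0096). The lines did not overlap for any of these genes, and the IAA libraries were ordered likewise, with Plagl1 at 265 and 241 CPM in 11D IAA against 19.7 CPM in 10E IAA.

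Nnat, with 21 pooled counts in 11D EtOH and 3 in 10E EtOH, had a log2 difference of 3.00 ± 0.56 (SE, edgeR FDR 0.0124). The ratio of pooled counts, scaled by library totals, was 8.74 (95% counting interval 2.61 to 45.8). Peg3 was at 0.44 ± 0.13 (edgeR FDR 0.0895), Igf2r at 0.22 ± 0.11, H19 at 1.88 ± 0.91, Mest at -0.36 ± 0.14 and Cdkn1c at -0.82 ± 0.57, and none of these 5 passed. The Cdkn1c value ran from -7.12 without the second 11D EtOH library, where only the library with 0 counts is left, to -0.37 without the first. Without the second 11D EtOH library 2 genes were called instead of 4, as Nnat (3.07, edgeR FDR 0.178) and Sgce (1.67, edgeR FDR 0.067) missed the threshold. Without the second 10E EtOH library Nnat also missed it (2.39, edgeR FDR 0.0869). Neighbouring genes had smaller values, with log2 differences of -0.42 ± 0.19 for Phactr2 and 0.00 ± 0.13 for Ltv1 beside Plagl1, 0.27 ± 0.28 for Casd1 and 0.07 ± 0.17 for Ppp1r9a beside Peg10 and Sgce, and -0.22 ± 0.13 for Blcap. Of the marker lists, 1 gene each was lower in line 11D, where 1.28% of all genes tested were. They were Klf4 of 8 stem cell, Fbn1 of 6 fibroblast, Gata4 of 6 primitive endoderm and Cdx2 of 8 trophectoderm markers tested. Their part in the line difference was not tested.

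Other imprinted genes also set the lines apart. Of all genes tested, 1.95% were higher and 1.28% lower in line 11D. Among 16 further paternally expressed genes tested, with a median log2 difference of 0.50, 3 were higher in line 11D. They were Impact, a regulator of translation, at 2.58 ± 0.15 (SE, edgeR FDR 4.56e-07), the splicing factor gene Zrsr1 at 0.75 ± 0.14 and the zinc finger gene Zdbf2 at 0.60 ± 0.12. Among 14 maternally expressed genes, with a median of -0.22, the growth adaptor Grb10 was lower in line 11D, at -2.29 ± 0.15 (edgeR FDR 1.98e-06), and the ubiquitin ligase gene Ube3a was higher at 0.50 ± 0.12 (edgeR FDR 0.0414). The Ube3a call was lost in 5 of the 7 fits that left out 1 library, those without the first 10E EtOH, the 10E IAA, the second 11D EtOH or either 11D IAA library (edgeR FDR 0.0525 to 0.313). These genes are named because they passed the test, after their values were seen, and without the first 10E EtOH or the second 11D EtOH library 1 of the 16 paternally expressed genes was called. Impact ranged from 209 to 237 CPM in 11D EtOH against 30.4 to 43.5 CPM in 10E EtOH, and from 128 to 159 CPM in untagged cells. Grb10 ran from 25.5 to 32.1 CPM in 11D EtOH against 133 to 152 CPM in 10E EtOH, and from 76.8 to 93.5 CPM in untagged cells.

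**Figure D3:**
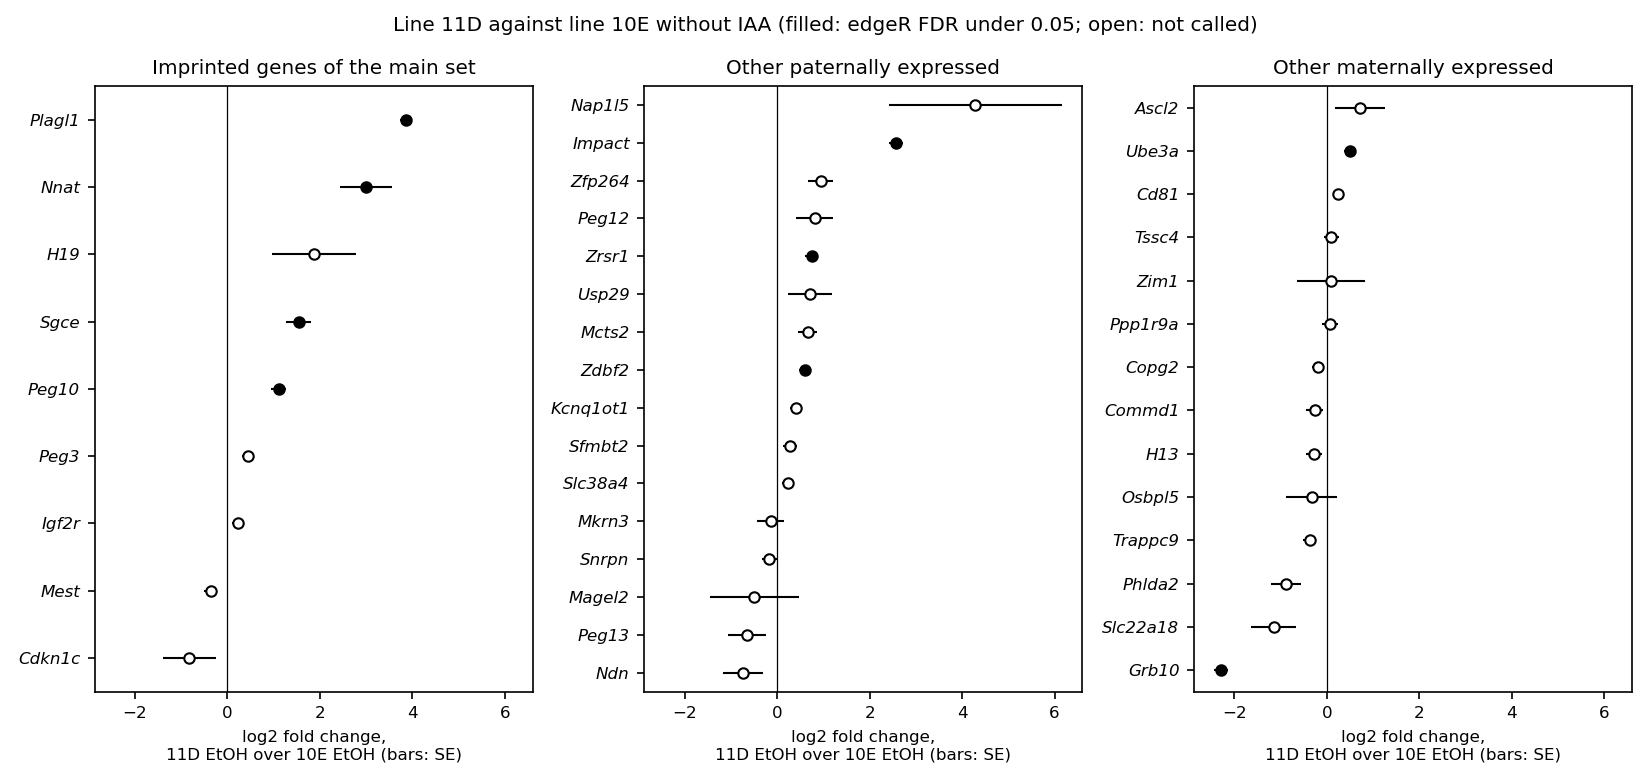
Log2 difference of line 11D over line 10E under EtOH (horizontal axes) with its SE (bars) for the 9 imprinted genes of the main set that were tested, 16 other paternally expressed and 14 other maternally expressed genes, filled where the edgeR FDR was under 0.05. Plagl1 at 3.86 and Impact at 2.58 lie far to the right with short bars, and Grb10 at -2.29 lies to the left.

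The untagged cells show where each line stood relative to cells without the degron. These tests of the single lines were added after the values of the lines had been seen, and they compare EtOH with IAA, so tag, clone and auxin cannot be told apart. In line 11D, Plagl1, Peg10 and Sgce were higher than in untagged cells, 3 of 8 genes tested, where 2.54% of all genes passed in either direction. In line 10E, Plagl1 was lower, 1 of 8, where 5.81% of all passed. Plagl1 had 143, 131 and 128 CPM in untagged cells, between the lines, with log2 differences of 1.72 ± 0.10 in line 11D (SE, edgeR FDR 4.02e-07) and -2.14 ± 0.12 in line 10E (edgeR FDR 2.46e-08). Impact lay between the lines too, at 0.68 ± 0.13 in line 11D and -1.91 ± 0.15 in line 10E, and Grb10 had the reverse signs, at -1.55 ± 0.14 in line 11D and 0.72 ± 0.13 in line 10E, all with an edgeR FDR under 0.05.

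Peg10 had 150, 112 and 136 CPM in untagged cells, with log2 differences of 0.83 ± 0.15 in line 11D (SE, edgeR FDR 0.0109) and -0.28 ± 0.16 in line 10E (edgeR FDR 0.275). Sgce had 5.79, 5.06 and 5.5 CPM there, with 1.06 ± 0.23 in line 11D (edgeR FDR 0.0262) and -0.49 ± 0.25 in line 10E (edgeR FDR 0.233). For Peg10 and Sgce it was thus line 11D that passed the test against untagged cells. Only Plagl1 was called in line 11D without the first 11D EtOH library or without the second untagged library, and Sgce also missed the threshold without the second 11D EtOH, the first untagged or the third untagged library, and with DESeq2. Igf2r joined Plagl1 below untagged cells in line 10E with DESeq2 (-0.33, adjusted p 0.029).

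Averaged over the lines, tagged EtOH cells did not differ from untagged cells for any of the 8 genes tested, where 1.27% of all genes were higher and 2.29% lower. At an unadjusted p under 0.05 edgeR found 2 of the 8, and DESeq2 called 0. Plagl1 averaged to -0.21 ± 0.09 in this comparison, the mean of line values of opposite sign. Tagged IAA against untagged IAA, which shares the untagged libraries with this comparison and the tagged IAA libraries with the first, gave 4 of 8 higher, where 27.9% of all genes were higher, and 2 of 8 lower, where 27.8% were. Higher were Nnat at 5.35 ± 0.32, Cdkn1c at 3.44 ± 0.40, Peg3 at 1.25 ± 0.11 and Mest at 0.97 ± 0.12 (SE). In the comparison of tagged EtOH with untagged cells the same genes had 0.22 ± 0.60, 0.36 ± 0.47, 0.05 ± 0.10 and 0.11 ± 0.11. In tagged IAA against untagged cells Nnat ran from 4.93 without the third untagged library to 6.72 without the 10E IAA library. In the latter fit line 11D alone stood for tagged IAA cells. In tagged EtOH against untagged cells Cdkn1c ran from -2.77 without the second 11D EtOH library to 0.82 without the third untagged library.

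Igf2r, at 178, 193 and 153 CPM in tagged IAA cells against 233, 216 and 205 CPM in untagged cells, was lower by a log2 difference of -0.37 ± 0.09 (SE, edgeR FDR 0.00315), a call lost without the 10E IAA library (-0.20) and under scaling by library totals (-0.07). Plagl1 was at -0.92 ± 0.11 (edgeR FDR 4.52e-06), a value averaged over lines that stood on opposite sides of the untagged cells. Without the 10E IAA library it reversed to 0.94 (edgeR FDR 3.56e-06), Peg10 (0.49) and Sgce (0.85) passed as well, and 7 of the genes were higher and 0 lower.

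Other imprinted genes and the machinery that keeps imprints were examined in the first comparison. Of 20 listed paternally expressed genes 16 were tested, and 2 rose and 7 fell with IAA, with a median log2 fold change of -0.27. Of all genes tested, 29.3% rose and 28.1% fell with TMM factors. Under scaling by library totals 3 of the 16 rose and 4 fell, where 7713 of all 17904 genes rose and 2851 fell. Sfmbt2, a Polycomb protein needed in trophoblast, fell by 1.41 (SE 0.12, edgeR FDR 1.34e-07), and the amino acid transporter gene Slc38a4 fell by 0.81 (SE 0.11, edgeR FDR 1.12e-05). Ndn, at 0.92 ± 0.31 (edgeR FDR 0.0189), and Nap1l5, at 2.19 ± 0.84 (edgeR FDR 0.0345), were the 2 that rose, and leaving out single libraries left 0 to 2 calls, with 0 without the 10E IAA, the second 11D IAA or the second 11D EtOH library, and 0 with DESeq2. Nap1l5 had only 21 pooled counts in tagged IAA cells and 4 in tagged EtOH cells. Of 14 maternally expressed genes tested among 21, 3 rose and 6 fell, with a median of -0.42. The signal peptide peptidase gene H13 had 1.13 ± 0.14 (edgeR FDR 4.22e-06) and rose beside Zim1, whereas Ube3a had -1.29 ± 0.10 (edgeR FDR 3.87e-08) and the tetraspanin gene Cd81 -0.84 ± 0.09 (edgeR FDR 9.14e-07).

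The list of 15 factors that place or keep imprints leaned downwards, with 2 higher, 9 lower and a median of -0.44, where 29.3% of all genes were higher and 28.1% lower. The protein of Zfp57 binds the methylated hexamer, whose letters are in the Plagl1 window and the Mest window shown but not at the upstream Mest start. Binding and methylation were not measured here, and a link of Zfp57 to the changes of these genes was not tested. Zfp57 ranged from 153 to 188 CPM in tagged IAA cells against 364 to 565 CPM in tagged EtOH cells and 480 to 508 CPM in untagged cells. Its log2 fold change was -1.34 ± 0.11 (SE, edgeR FDR 8.3e-08). Uhrf1, which guides DNMT1 to replicated DNA, ranged from 289 to 357 CPM in tagged IAA cells against 688 to 991 CPM in tagged EtOH cells, a change of -1.29 ± 0.10 (edgeR FDR 3.45e-08). Dppa3, which protects maternal marks in the zygote, rose by 2.10 ± 0.35 (edgeR FDR 0.000108), and so did Arid4a, a chromatin factor, by 0.55 ± 0.10 (edgeR FDR 0.000224). Under scaling by library totals the list counted 4 higher and 5 lower, where 7713 of all 17904 genes were higher and 2851 lower.

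Of 13 genes of the IGF pathway 11 were tested, and 3 rose and 7 fell, with a median of -0.73. Of all genes tested, 29.3% rose and 28.1% fell. Igf1r, the receptor through which IGF2 signals, ranged from 15.1 to 27.9 CPM in tagged IAA cells against 61 to 80.4 CPM in tagged EtOH cells (-1.85 ± 0.13, edgeR FDR 1.8e-08), and the mRNA-binding protein gene Igf2bp2 had -1.25 ± 0.09 (edgeR FDR 2.15e-08). Igfbp3, an IGF carrier, ranged from 12.6 to 19.1 CPM in tagged IAA cells against 1.87 to 2.88 CPM in tagged EtOH cells (2.69 ± 0.21, edgeR FDR 3.24e-08), and the insulin receptor substrate Irs2 had 0.78 ± 0.15 (edgeR FDR 0.000365). Of 6 other inhibitors of cyclin-dependent kinases, set beside Cdkn1c, 2 rose and 1 fell, with a median of 0.32. When libraries were scaled by their totals 4 of the 6 rose and 0 fell, where 7713 of all 17904 genes rose and 2851 fell. Cdkn2b ranged from 8.86 to 14.3 CPM in tagged IAA cells against 1.56 to 2.67 CPM in tagged EtOH cells (2.36 ± 0.27, edgeR FDR 2.13e-06). Cdkn1a at 0.23 ± 0.08 (edgeR FDR 0.0262) and Cdkn1b at -0.35 ± 0.13 (edgeR FDR 0.0294) were small changes near the threshold. Without the 10E IAA or the first 11D EtOH library 1 of the 6 rose, and without the first 10E EtOH library 2 of the 6 fell. The call of Cdkn1b was lost without the second 10E EtOH, the 10E IAA or the second 11D IAA library. It was also lost with DESeq2, under both other scalings, without a line term and with a replicate block (edgeR FDR 0.0507). That of Cdkn1a was lost without the filter (edgeR FDR 0.191) and without the 10E IAA, the first 11D EtOH or the first 11D IAA library. Neither was called without the 2 EtOH libraries richest in reads of CT010467.1.

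**Figure D4:**
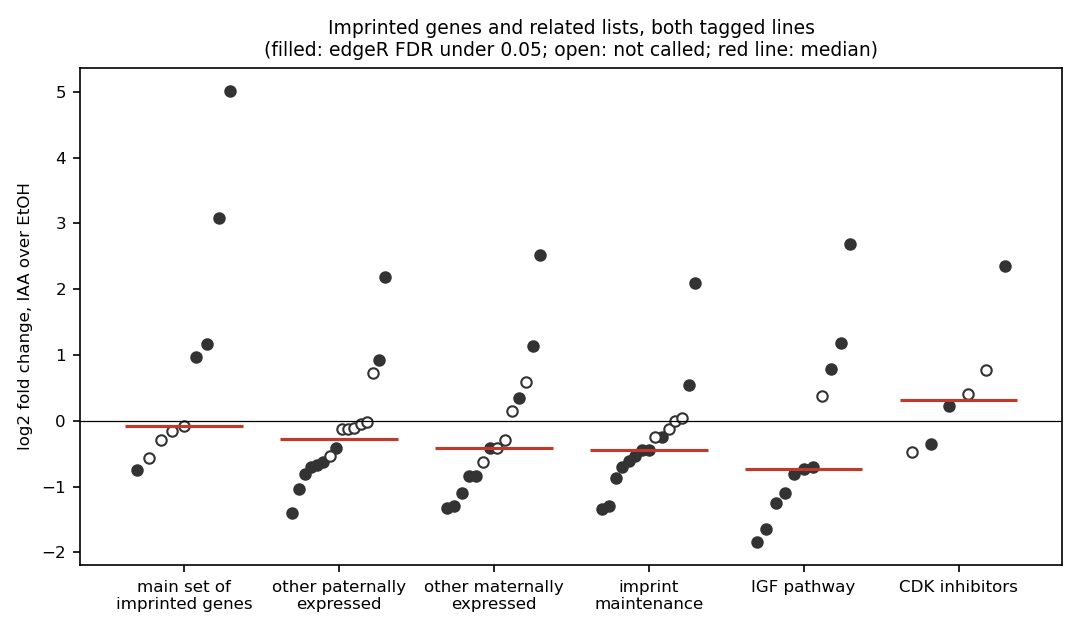
Log2 fold change of IAA over EtOH in both tagged lines (vertical axis) for every tested gene of the main set and of 5 further lists (points, filled where the edgeR FDR was under 0.05), with the median of each list as a red line. Nnat at 5.02 and Cdkn1c at 3.08 stand at the top of the main set, and the medians run from -0.73 for the IGF pathway to 0.32 for the inhibitors of cyclin-dependent kinases.

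For each of the 8 genes with enough counts, the gene with the most similar profile over the 10 libraries was sought among 11776 genes, by the root mean square (RMS) difference of centred log2(CPM + 1) values. For Plagl1 it was Impact, another imprinted gene, with an RMS difference of 0.58 over a Plagl1 range of 4.50, both genes being higher in line 11D than in line 10E. Mest was nearest to the haem oxygenase gene Hmox1 (0.14), Cdkn1c to the sulfotransferase gene Chst15 (0.37), Nnat to the proton pump gene Atp12a (0.64) and Peg3 to the RNA-binding protein gene Rbm4b (0.08). Peg10 was nearest to Chchd6 (0.21), a mitochondrial membrane organiser, Sgce to Slc25a26 (0.18), a mitochondrial carrier, and Igf2r to Cstf2 (0.03), an mRNA cleavage factor. Peg10 and Sgce were not each other's nearest gene by this measure. These are descriptions over libraries that share lines and treatments.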

How the data were processed

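The authors deposited whole-number read counts per gene symbol as 1 table, and a comparison table with a log2 fold change and p-value per gene, per the file headers. STAR, deepTools and mm10 are named in the submitters' processing notes. The sources used here give no versions, read counter, annotation or strand setting, so genes with overlapping exons are uncertain, as Nnat, Plagl1, Mest, Cdkn1c, H19 and Igf2 are in part.

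The table has 10 libraries, of 11 samples in the labels. Columns name the lines 10E, 11D and TIR1, which no label ties to clone numbers. Untagged cells were assigned to the TIR1 columns, the only code with a replicate 3 and no EtOH column. Replicates of a group differed by more than counting noise (a ratio of chi-square to its degrees of freedom of 2.84 to 25.5).

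Counts were tested with edgeR 4.0.16 in R 4.3.3 (TMM factors, filterByExpr, quasi-likelihood F test). IAA against EtOH had line as a term, and the other comparisons were contrasts of line and treatment groups. The comparisons with untagged cells used all 10 libraries, 17439 genes tested, and the others the 7 tagged libraries. The scripts were tested on simulated data. Alternatives were DESeq2 1.42.0, library totals, RLE size factors, no filter, all 10 libraries, no line term, a replicate block and leaving out each library. The labels do not say whether replicate numbers pair the libraries, so the main fit left them out. Gene positions come from GENCODE vM21 (GRCm38, the assembly of mm10), in which 96.4% of the table's symbols were found, and promoter sequences from RefSeq.

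The 10 genes, the lists and the comparisons were chosen with earlier results of these data known. All 10 are named. From each further list, up to 2 genes per direction with the smallest FDR among those called in IAA against EtOH are named, and neighbours that passed the filter may be named. List genes named between the lines or against untagged cells (Impact, Zrsr1, Zdbf2, Grb10 and Ube3a, and the markers Klf4, Fbn1, Gata4 and Cdx2) were named after their values were seen.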

Additional observations from a re-analysis of the deposited data

How the results depend on the processing

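The 4 rises (Nnat, Cdkn1c, Peg3 and Mest) with IAA over both lines kept their direction and their call under every alternative run. The fall of Plagl1 did so except without a line term, where 0 genes were called lower, and without the filter 2 were, Peg10 being the second. Leaving out the 2 EtOH libraries richest in reads of CT010467.1, an alternative chosen after seeing the data, still gave 4 higher and 1 lower, with Nnat at 4.93. Scaling by library totals moved the median of all genes to 0.36, against 0.03 with TMM factors, and all genes called lower numbered 2851 (5034 with TMM factors), 1462 in line 10E and 2394 in line 11D. With it, 5162 genes were higher in line 10E and 6105 in line 11D, 0 of the 9 genes were lower in line 10E, 1 of 8 was lower and 6899 of all were higher and 3006 lower in tagged IAA against untagged cells, 715 of all were lower in tagged EtOH cells and 2 of 8 were lower in 10E EtOH cells, and Ltv1 reversed to 0.07. DESeq2 called 1660 genes higher in line 10E, 2687 higher in line 11D, 216 higher in 11D than 10E under EtOH, 340 higher in tagged EtOH than untagged cells, 1 gene in the difference of effects, and 2 of 8 genes lower in 10E EtOH than untagged cells. Without the filter, 15 genes were higher and 12 lower in the difference of effects, with Mest the 1 of the 9 genes (1.16, edgeR FDR 0.0315), and 2 of the 9 were lower in line 11D. Also without it, 448 genes were lower in 11D than 10E under EtOH, and against untagged cells 643 were higher and 723 lower in tagged EtOH, 465 higher and 371 lower in 11D EtOH, and 933 higher in 10E EtOH.

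Whether same-numbered libraries share a day or culture is not stated in the labels. Deviations of same-numbered libraries correlated at 0.246 (11D IAA with 11D EtOH), -0.216 (10E EtOH with 11D EtOH) and -0.143 (11D IAA with 10E EtOH). Each value rests on 1 replicate difference per group, so it cannot decide the pairing. A replicate block left 4 genes higher and 1 lower with IAA, and against untagged cells gave 142 genes higher in tagged EtOH, 138 higher in 11D EtOH, and 175 higher and 396 lower in 10E EtOH, with Sgce no longer called in 11D EtOH (1.07, edgeR FDR 0.0872).

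When single libraries were left out, the 9 genes gave 4 higher throughout and 1 to 2 lower with IAA, 0 to 2 lower in line 10E, 1 to 2 lower in line 11D and 2 to 5 higher in 11D than 10E. The 2 lower in line 11D came without either 10E EtOH library, and the 2 and the 0 lower in line 10E without the first and the second of them. Against untagged cells 4 to 7 were higher and 0 to 2 lower in tagged IAA, 1 to 3 higher in 11D EtOH and 1 to 2 lower in 10E EtOH, where the 2 came without the second 10E EtOH library. Plagl1 in tagged IAA against untagged cells ran from -0.95 to 0.94. The 0.94, the 7 higher and the 0 lower came without the 10E IAA library, where line 11D alone stood for tagged IAA cells. Over all genes, calls ran from 2302 to 4171 higher and 2468 to 4354 lower in line 11D, both lowest without its second IAA library, and from 0 to 2 higher in the difference of effects. Between the lines they ran from 58 to 493 higher and 21 to 541 lower, lowest without the second 11D EtOH library. Against untagged cells they ran from 17 to 509 higher and 66 to 546 lower in tagged EtOH, lowest without the first untagged library, from 95 to 256 higher and 33 to 247 lower in 11D EtOH, and from 11 to 675 higher and 33 to 818 lower in 10E EtOH, lowest without the first 10E EtOH library. Apart from the fit without the 10E IAA library, the cause of these moves was not tested. Depth limits Nnat, Zim1 and Nap1l5 in EtOH, H19 and Igf2, whose counts were few.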
